A study of Gallus gallus with 26 samples.

Results

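The 6 RNA libraries of joint interzone and adjacent phalange fell into 2 kinds when they were compared by transcripts of the W chromosome. The members were chosen by the normalized count of *HNRNPKL*, a W-linked gene of the family of RNA-binding proteins that coat nuclear transcripts. Libraries under 100 normalized counts were taken as W-poor and libraries above 1000 as W-rich. This placed 2 of the 6 RNA libraries, interzone replicate 1 and phalange replicate 1, in the W-poor kind, and 4 libraries, replicates 2 and 3 of each tissue, in the W-rich kind, out of 26 samples in the whole series. *HNRNPKL* read 21.4 in interzone 1 and 28.0 in phalange 1. In the W-rich libraries it read 5550 in interzone 2, 4513 in interzone 3, 5932 in phalange 2 and 4295 in phalange 3. No library lay between 28.0 and 4295 normalized counts. These values chose the libraries, so they are given as a description.

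All tissue came from White Leghorn chick embryos at stage HH32, without any genetic change or treatment. The interzone is the band of flattened cells where a joint forms, and the phalange sample was the proximal cartilage next to it, both cut by hand from the third digit of the hindlimb. RNA was amplified by Smart-seq2, an oligo(dT)-primed method for small inputs, in 3 libraries of each tissue. The other samples of the series were ChIP-seq libraries of the histone marks H3K27ac and H3K4me1, made from pools of 100 specimens, with their inputs.

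In chickens the female carries one Z and one W chromosome and the male carries a pair of Z chromosomes. The W chromosome is small and keeps mainly dosage-sensitive genes, most of which have a related copy on Z, called a gametolog. Birds do not silence a whole Z chromosome in males, and Z-linked genes are known to be compensated between the sexes only in part and gene by gene. A library from male tissue is therefore known to lack W transcripts, and a library pooled from several embryos can hold both sexes. The sex of the embryos and the number of embryos behind each RNA library were not given in the sources used here, so the libraries are named below by their W transcripts alone. The split coincided with the replicate number. Anything else that replicate 1 of both tissues shared cannot be told apart from it.

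Reads on genes ranged from 12431285 to 14347148 per library. Genes with at least 10 reads numbered 12036 in interzone 1 and 11266 in phalange 1, against 10876 to 11478 in the W-rich libraries, so interzone 1 detected the most, and phalange 1 lay between phalange 2, with 10876, and phalange 3, with 11478. Of 15984 genes in the table, 11928 had a mean of at least 10 normalized counts and were compared. By their symbols, 14 of these were placed on W, 469 on Z and 9451 on numbered autosomes in the RefSeq annotation of GRCg7b, and 1756 had no symbol. Differences are given below as log2(normalized count + 1) in W-poor minus W-rich libraries, fitted with tissue as covariate, with the standard error (SE) of the fit.

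All 14 compared W-linked genes were lower in both W-poor libraries than in every W-rich library. Of all genes compared, 6.86% lay below in this way, and nothing is read from the members' count, since *HNRNPKL* chose the split. A gene of this kind also passed the minimum only through the W-rich libraries. The table held 19 W-linked genes in all. The remaining 5 (*LOC430766*, *HINTW*, *SMAD7B*, *LOC107055444* and *LOC107055485*) were below the minimum, and the highest of their values was 17.2 normalized counts in any library. Reads on all 19 genes together numbered 37 in interzone 1 and 30 in phalange 1. In the W-rich libraries they numbered 7518 in interzone 2, 7183 in interzone 3, 8036 in phalange 2 and 6959 in phalange 3. *HNRNPKL* supplied most of these reads in every library. Without it, 13 reads were left in interzone 1 and 2 in phalange 1, against 2142 to 2472 in the W-rich libraries.

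The W-poor libraries held 52 reads of *HNRNPKL* together, against 20314 in the W-rich libraries, as the rule of the split required. *HNRNPKL* was the only W-linked gene with 10 or more reads in a W-poor library, and its partner *HNRNPK* on Z is a close relative, so that reads of 50 bp may not always separate the pair. The difference was -7.80 in interzone and -7.45 in phalange.

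*LOC374195*, listed by RefSeq as the W copy of *CHD1*, a chromatin remodeller whose gametologs are used to sex birds, was at 2.68 in interzone 1 and at 0 in phalange 1. The same gene was at 302 in interzone 2, 355 in interzone 3, 480 in phalange 2 and 508 in phalange 3. The W-poor libraries held 0.344% of the W-rich level, with an exact 95% interval of 0.0708% to 1.01%. Intervals and floors cover counting error only, since amplified copies are counted as reads. *LOC427025*, listed by RefSeq as a relative of the cohesin loader gene *NIPBL*, read 1.79 in interzone 1 and 0 in phalange 1. Its W-rich values were 426 in interzone 2, 232 in interzone 3, 576 in phalange 2 and 452 in phalange 3. *LOC769000* was at 0.894 and 0 in interzone 1 and phalange 1, and between 350 and 592 in the W-rich libraries. None of these genes overlapped between the 2 kinds of library.

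*ATP5F1AW*, the W copy of the alpha subunit of mitochondrial ATP synthase, had 0 reads in both W-poor libraries. It read 137 in interzone 2, 187 in interzone 3, 192 in phalange 2 and 229 in phalange 3. With 0 reads allowing up to 3 reads per library, each W-rich library was at least 45.8-fold higher. On the same floor *LOC431003* was at least 47.6-fold and *LOC107049174* at least 37.1-fold higher. *LOC425347*, *LOC426615*, *LOC100859602* and *LOC100858742* also had 0 reads in both W-poor libraries. In these the lowest W-rich library, at 4.71 to 45.1 normalized counts, was higher than the floor by at least 4.16-fold, 15.1-fold, 2.80-fold and 1.57-fold. *LOC100858742* had 5 reads in its lowest W-rich library, so its absence from the W-poor libraries was barely measurable at this depth. *SPIN1W*, *LOC427010* and *LOC107049046* had means of 12.7 to 20.5 and 1 to 5 reads in the W-poor libraries together.

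**Figure D1:**
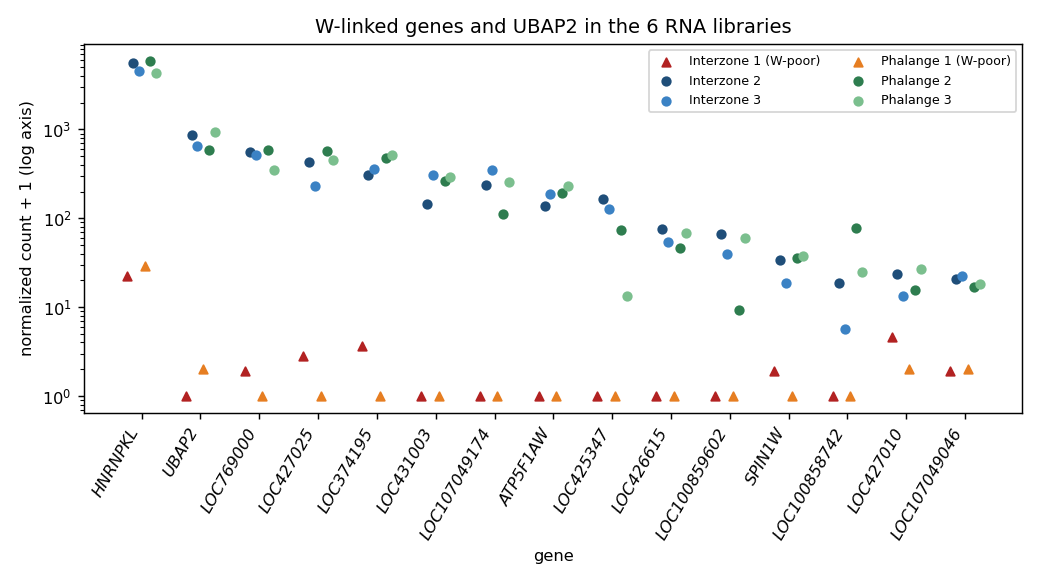
Normalized count plus 1 (log axis) of the 14 W-linked genes with a mean of at least 10 and of *UBAP2*, in each of the 6 RNA libraries. Triangles stand for the W-poor libraries and circles for the W-rich libraries, and for every gene both triangles lie below all 4 circles, with *HNRNPKL* at 21.4 and 28.0 against 4295 to 5932.

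*UBAP2*, a gene for a ubiquitin-associated protein, behaved like the W-linked genes although its symbol is placed on Z. It read 0 in interzone 1 and 0.998, a single read, in phalange 1. In the W-rich libraries it read 873 in interzone 2, 645 in interzone 3, 592 in phalange 2 and 936 in phalange 3. In the RefSeq table the symbol is also a synonym of a W-linked relative, *UBAP2L2*, so the row could not be placed on one chromosome. The W-poor libraries held 0.0618% of the W-rich level, with an exact 95% interval of 0.00156% to 0.345%. *LOC112531183*, whose symbol was not found in the annotation, had a like pattern at a higher floor. It read 8.94 in interzone 1 and 3.99 in phalange 1, and 282 to 382 in the W-rich libraries.

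A wider search asked which rows had at least 10 reads in every W-rich library and at most 3 in each W-poor library. It found 40 of the 15984 rows. Of these, 10 were W-linked, 3 could not be placed, 24 had no symbol, 2 were autosomal (*ATRNL1* and *CHL1*) and 1 was Z-linked. The 24 rows without a symbol reached up to 606 normalized counts in W-rich libraries and at most 2.68 in W-poor libraries, and 20 of them had 0 reads in both W-poor libraries. Their chromosomes were not analysed here. The opposite pattern was met by 52 of the 15984 rows, of which 37 were autosomal and 6 Z-linked. The table held 19 W-linked and 570 Z-linked genes. Both patterns picked rows by the kind of library in which they were high, and a W-linked gene made the split. Nothing is therefore read from these counts. *ATP6AP1L*, an accessory gene of the proton pump, was the only Z-linked gene with the W-like pattern. Its normalized counts were 0.894 in interzone 1, 0 in phalange 1, and 98.1, 48.9, 89.1 and 73.7 in interzone 2, interzone 3, phalange 2 and phalange 3.

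The fit across all genes called 16 genes, all lower in the W-poor libraries, or 0.134% of those compared, at an adjusted p under 0.05 and a log2 difference beyond 0.5 (limma). They were 7 W-linked genes (*HNRNPKL*, which made the split, *LOC769000*, *LOC427025*, *LOC374195*, *LOC431003*, *LOC107049174* and *ATP5F1AW*), *UBAP2*, *LOC112531183* and 7 genes without a symbol. No gene was called higher (0.0%). Of the 11928 genes compared, limma had 402 higher and 297 lower at an unadjusted p under 0.05. The recovered reads gave 0 genes higher and 5 lower in edgeR (0.0% and 0.0419%), and 62 higher and 53 lower in DESeq2 (0.52% and 0.444%), which held all 16. The libraries were split on measured values, so these counts describe them and support nothing. Leaving out any 1 of the 6 libraries brought the limma count to between 0 and 1.

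The Z-linked partners of W-linked genes were compared next. *HNRNPK*, the Z copy, was higher in both W-poor libraries. It read 11024 in interzone 1 and 10878 in phalange 1, and 5254, 5701, 6389 and 5779 in interzone 2, interzone 3, phalange 2 and phalange 3. The W-poor libraries did not overlap with the W-rich libraries, and the linear ratio of means was 1.89 (log2 difference 0.93, SE 0.16). The sum of *HNRNPK* and *HNRNPKL* was nearly level. It was 11046 and 10906 in the W-poor libraries, against 10804, 10214, 12321 and 10075 in the W-rich libraries. Those sums overlapped, with a mean of 10976 in W-poor and 10853 ± 1028 (SD, n = 4) in W-rich libraries. *HNRNPKL* made up 42.6% to 51.4% of the sum in W-rich libraries. Reads assigned to the wrong copy would move both values but not their sum. Reads that match both copies, if left uncounted, could change the sum, and this was not tested.

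*ATP5F1AZ*, the Z copy of the ATP synthase alpha subunit, also differed, but its summed level with the W copy was not level. It read 31662 in interzone 1 and 34552 in phalange 1, and 14636, 16537, 15052 and 16685 in interzone 2, interzone 3, phalange 2 and phalange 3. Its linear ratio was 2.11 (log2 difference 1.07, SE 0.15). The W copy supplied only 0.929% to 1.35% of the summed level in W-rich libraries, so the sum still differed by a ratio of 2.08.

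The other pairs did not share one pattern. *SPIN1Z*, the Z copy of a gene for a chromatin reader of the spindlin family, read 609 and 627 in the W-poor libraries, and 370, 472, 342 and 226 in the W-rich libraries, which did not overlap (linear ratio 1.75). *CHD1Z* did overlap, with 268 in interzone 1 and 299 in phalange 1 against 148, 340, 229 and 389 in interzone 2, interzone 3, phalange 2 and phalange 3. Its log2 difference was 0.13 with an SE of 0.47, and it turned to -0.14 without interzone 2 and to -0.02 without phalange 2. The sum of *CHD1Z* and *LOC374195* was 271 and 299 in the W-poor libraries, and 450 to 897 in the W-rich libraries. *HINT1* and *SMAD7*, partners of *HINTW* and *SMAD7B*, were below 22 normalized counts in every library.

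**Figure D2:**
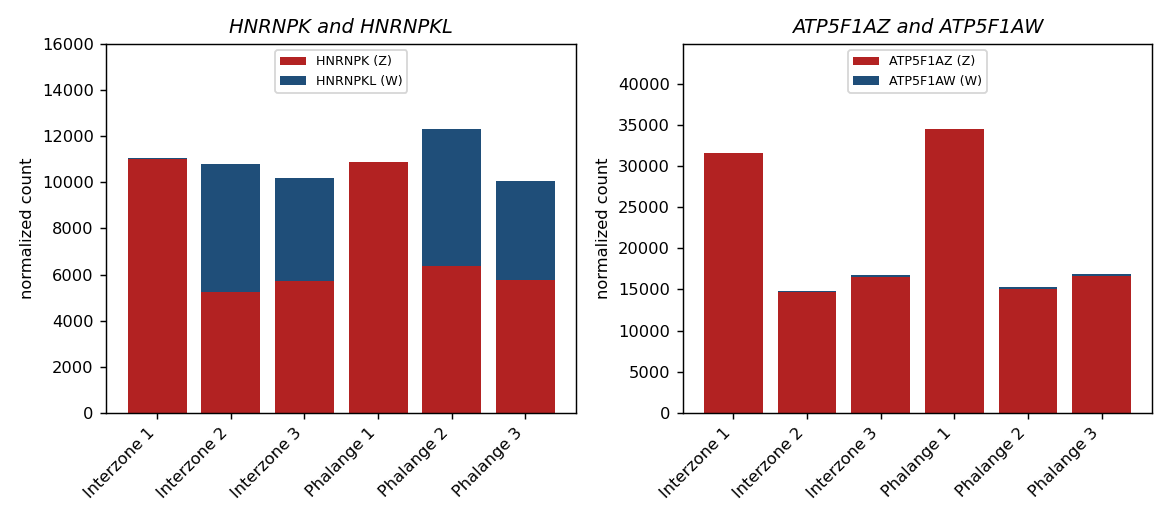
Stacked normalized counts of a Z-linked gene (red) and its W-linked partner (blue) in each of the 6 RNA libraries, for *HNRNPK* with *HNRNPKL* on the left and *ATP5F1AZ* with *ATP5F1AW* on the right, with axes from 0. The summed bars of the first pair span 10075 to 12321 in all libraries, while those of the second stand at 31662 and 34552 in the W-poor libraries and at 14774 to 16914 in the W-rich libraries.

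Z-linked genes as a class were higher in the W-poor libraries. Of the 469 compared, 392 were above 0. Their median log2 difference was 0.66, a ratio of 1.58, with quartiles of 0.22 and 1.08. The median of the 9451 autosomal genes was 0.03, with quartiles of -0.28 and 0.47, and that of all genes compared was 0.05. The medians of the 29 autosomes with at least 20 genes ran from -0.08 on chromosome 30 to 0.14 on chromosome 26, so the Z chromosome lay outside the range of the single autosomes. Both W-poor libraries exceeded all W-rich libraries for 164 Z-linked genes, or 34.97%, beside 8.49% of all genes compared. Only *ATP6AP1L* was lower in this way. No Z-linked gene was called by limma. In DESeq2, 25 were called higher and 1 lower, beside 0.52% and 0.444% of all genes.

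Each library pair gave a like value. The Z median minus the autosomal median was 0.72 for interzone 1 minus interzone 2, and 0.65 for interzone 1 minus interzone 3. In phalange it was 0.50 for replicate 1 minus replicate 2, and 0.56 for replicate 1 minus replicate 3. Between the W-rich libraries of a tissue it was 0.00487 in interzone and -0.03 in phalange. The share of placed normalized counts on Z was 4.39% in interzone 1 and 4.40% in phalange 1, and 2.76%, 2.91%, 2.91% and 2.97% in interzone 2, interzone 3, phalange 2 and phalange 3. The split thus ordered the libraries by Z share without overlap in both tissues.

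**Figure D3:**
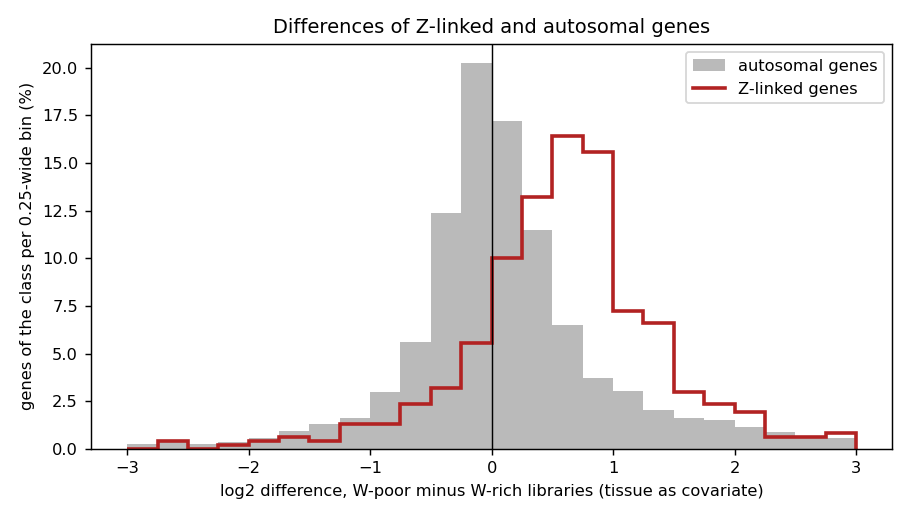
Share of genes (%) in bins of 0.25 on the scale of log2 difference, W-poor minus W-rich libraries with tissue as covariate, for 469 Z-linked genes (red line) and 9451 autosomal genes (grey). Values beyond 3 in either direction are not drawn. The Z-linked genes are centred near their median of 0.66, to the right of the autosomal genes with their median of 0.03.

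The difference was seen at each level of expression. Among genes with a mean of at least 1000 normalized counts, 91 of 101 Z-linked genes were above 0, with a median of 0.53, against -0.08 for 2372 autosomal genes. Of these, 50 (49.5%) did not overlap between the kinds of library in the higher direction, beside 6.6% of all genes at that level. The Z median was 0.69 against 0.05 for autosomal genes at means of 100 to 1000. At means of 10 to 100 it was 0.82 against 0.38, so low autosomal genes were also higher in the W-poor libraries, beside the higher number of genes detected in interzone 1. The part of detection in the values of low genes was not tested.

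Abundant Z-linked genes of general cell functions, chosen after their values were seen, stood apart from the W-rich libraries. *VCP*, an ATPase that extracts proteins for degradation, read 7914 and 7826 in the W-poor libraries, against 4398 to 5211 in the W-rich libraries (log2 difference 0.75, SE 0.16). *DCTN3*, a dynactin subunit, read 4889 and 5731 against 1851 to 3103 (1.07, SE 0.22). *ATP5I*, a small subunit of ATP synthase, read 1650 and 1461 against 682 to 791 (1.05, SE 0.23). The complex I gene *NDUFS4* and the ribosomal gene *RPL17* had log2 differences of 0.91 (SE 0.22) and 0.92 (SE 0.20). None of these genes overlapped between the kinds of library.

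Not every abundant Z-linked gene differed. *IL11RA*, the interleukin 11 receptor, had 14346 and 20762 normalized counts in interzone 1 and phalange 1. Its W-rich values were 16143, 11413, 16989 and 19022 in interzone 2, interzone 3, phalange 2 and phalange 3, so the groups overlapped (log2 difference 0.14, SE 0.19). *NARS*, a transfer RNA synthetase gene, had -0.15 (SE 0.21), the hypoxia-induced *CA9* had -0.07 (SE 0.24) and *SSBP2* had -0.13 (SE 0.24). Among genes with means of at least 1000, the lowest were *RAI14* at -0.34 (SE 0.34) and *FGF10*, a limb bud growth factor, at -0.33 (SE 0.43). These errors leave room for no difference as well as for part of the median of the class.

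Along the Z chromosome, the compared genes were taken in order in 18 windows of 25 genes. All 18 medians were above 0. They ran from 0.22 in the window from *CDC37L1* to *SH3GL2* to 0.92 in the window from *SHB* to *PHAX*. The second lowest, at 0.29, was the adjacent window from *COL4A3BP* to *RFX3*. In single tissues its medians were 0.39 in interzone and 0.45 in phalange, so it was not among the lowest in phalange. The window from *B4GALT1* to *PGGT1B* was lower in both tissues, at 0.35 and 0.34. The lowest median in a single tissue was 0.09, in phalange in the lowest window. The 19 genes after the last full window are not included.

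The window from *COL4A3BP* to *RFX3* holds the neighbours of *DMRT1*, the Z-linked gene that directs testis development in birds and lies beside the male hypermethylated region, a stretch from which a noncoding RNA is made in females. *DMRT1* itself was not analysed here. Of 13 genes around its place in gene order, 8 were above 0, with a median of 0.25. This stood beside 83.6% of Z-linked genes (median 0.66) and 53.5% of all genes compared, and so few genes decide nothing about the region. *TNPO1*, *PTCD2* and *MRPS27*, on one side, had 1.10 (SE 0.56), 1.07 (SE 0.40) and 0.91 (SE 0.30). Nearer on that side, *MAP1B* and *PGM5* had -0.28 (SE 0.43) and -0.16 (SE 0.58), and *CBWD1*, beside *KANK1*, had 0.66 (SE 0.32). On the other side, *PUM3*, *RFX3* and *CDC37L1* had 0.25 (SE 0.32), 0.18 (SE 0.29) and 0.66 (SE 0.53). *KANK1*, an actin regulator next to *DMRT1*, read 350 and 285 in the W-poor libraries, and 355, 258, 580 and 551 in interzone 2, interzone 3, phalange 2 and phalange 3 (-0.39, SE 0.39). *SMARCA2*, a subunit of the SWI/SNF remodeller, read 7094 and 3753, against 8510, 5306, 5812 and 5707 in the same order (-0.27, SE 0.25). The values of both overlapped in interzone and lay below the W-rich libraries in phalange. *DMRT2*, a relative of *DMRT1* active in muscle precursors, read 101 and 33.9 in the W-poor libraries and 0, 284, 0 and 27.8 in the W-rich libraries. *VLDLR*, a lipoprotein receptor, read 107 in interzone 1 and 0.998 in phalange 1, and 284, 139, 65.0 and 134 in the W-rich libraries. It was the gene of the group with the lowest difference (-3.22, SE 1.12), and phalange 1 decided that value.

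**Figure D4:**
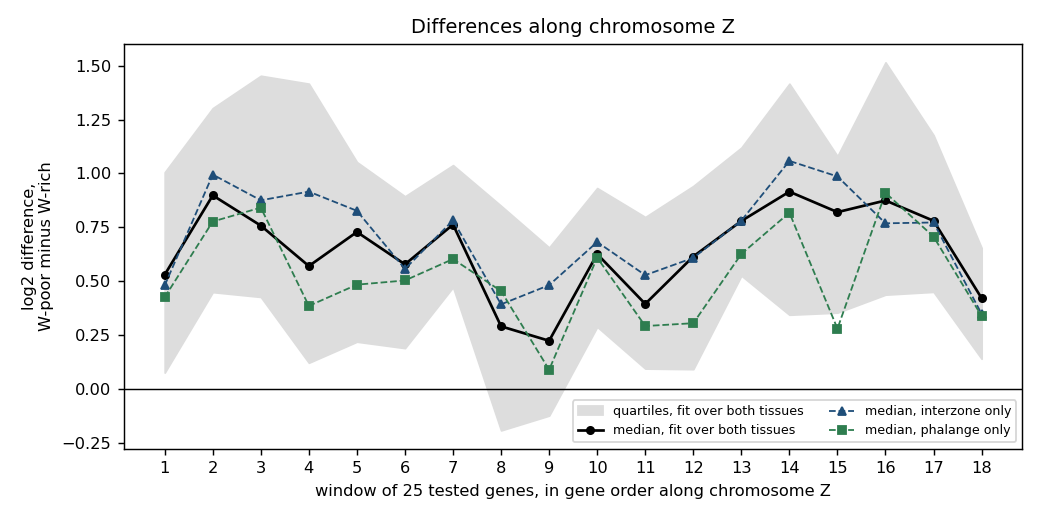
Median log2 difference, W-poor minus W-rich libraries, in 18 windows of 25 compared genes in their order along chromosome Z (black, with quartiles in grey), and the same in interzone (blue) and phalange (green) alone. All points lie above 0, and the median over both tissues falls to 0.29 and 0.22 in windows 8 and 9, the first of which holds the neighbours of *DMRT1*. In single tissues window 8 is at 0.39 in interzone and 0.45 in phalange, and window 18 is lower in both.

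By the size of the fitted difference, the Z-linked genes that stood apart in both tissues were mostly low and uneven. Of the 10 with the largest values, the 9 described here had means of 17.5 to 95.03 normalized counts, and 8 of these were higher in the W-poor libraries. They were chosen for standing apart, and some, such as *MUSK*, *TRIM14* and *GRIN3A*, passed the minimum only through the W-poor libraries. Nothing is therefore read from the count of higher ones. *MUSK*, the receptor kinase of the neuromuscular junction, read 34.8 in interzone 1 and 94.8 in phalange 1 and had 0 reads in all 4 W-rich libraries. *ANXA1*, an annexin of inflamed and epithelial tissue, read 142 and 353 in the W-poor libraries, 74.7 in phalange 3 and 0 in the other W-rich libraries. *TMOD1*, which caps actin filaments in muscle and red cells, read 150 and 55.9, against 9.29, 14.1, 1.05 and 0.957. *CRHBP*, *TRIM14*, *GRIN3A*, *CNTFR* and *LOC100858919* were the other higher ones, and *ATP6AP1L* was the lower one. With SEs of 1.01 to 2.02, their fitted sizes depend on the pseudocount, and none was called by limma. DESeq2 called *TMOD1*, *TRIM14* and *ATP6AP1L*, which is given as a description, since the libraries were split on measured values.

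Z-linked genes of limb and skeleton were described from a list of 32 symbols. The annotation placed 22 of them on Z in the table, and 17 passed the minimum. Of the 17, 15 were above 0 (median 0.80), beside 83.6% of all Z-linked genes compared (median 0.66). Both W-poor libraries lay above all W-rich libraries for 7 of the 17, beside 34.97% of Z-linked genes and 8.49% of all genes. The list was near the Z-linked class in these shares, so nothing is read from them about limb and skeleton. *SMAD2*, the messenger of activin and TGF-beta signals, read 2358 in interzone 1 and 2114 in phalange 1, against 895, 944, 1120 and 1399 in the W-rich libraries (1.06, SE 0.24). *NPR3*, the clearance receptor of natriuretic peptides, read 253 and 473, against 36.1, 68.7, 9.44 and 13.4 (3.80, SE 0.88). *FST*, the activin antagonist follistatin, read 345 and 409, against 0, 62.1, 90.2 and 67.0 (3.91, SE 1.60). *FBN2* (0.99, SE 0.50), a microfibril gene, and *ADAMTS6* (2.12, SE 0.76), a matrix protease gene, were also above all W-rich libraries.

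Members with structural roles in matrix, named after their values were seen, included some with smaller differences. *HAPLN1*, which links aggrecan to hyaluronan, read 560 in interzone 1 and 1459 in phalange 1, against 580, 405, 2021 and 3023 in the W-rich libraries (-0.28, SE 0.33). *THBS4*, a tendon matrix gene, read 2926 and 2244, against 2834, 1523, 2436 and 3329 (0.08, SE 0.33). *VCAN*, a large proteoglycan of the limb mesenchyme, had 0.27 (SE 0.32). Beside them, *SEMA6A*, a semaphorin gene of like abundance, read 2460 and 2203, against 2474, 1457, 948 and 1469. Its difference (0.64, SE 0.31) was near the Z-linked median of 0.66. *HAPLN1* was also lower in every interzone library than in every phalange library, while *THBS4* overlapped between the tissues. All of these genes varied between libraries of a kind, and their W-poor and W-rich values overlapped.

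A list of 32 genes of gonadal sex differentiation had 23 in the table, of which 13 passed the minimum. Of the 13, 9 were above 0, beside 53.5% of all genes, with a median of 0.77 and none called by limma. Both W-poor libraries exceeded all W-rich libraries for 2 of the 13, *FST* and *RSPO1*, beside 8.49% of all genes. *RSPO1*, an activator of Wnt signals in the ovary, read 265 and 131, against 70.2, 73.4, 0 and 48.8 (3.04, SE 1.53). The most abundant member was *SOX9*, which acts in testis but is also the main cartilage factor. It read 5401 in interzone 1 and 4541 in phalange 1, against 12879, 5013, 8037 and 10460 in the W-rich libraries (-0.79, SE 0.36). *AMH*, the anti-Müllerian hormone, was at 0.894 and 23.96 in the W-poor libraries and at most 1.91 in the W-rich libraries. *FOXL2*, a factor of the ovary, was at 2.99 in phalange 1 and at 0 elsewhere. *ESR1*, the oestrogen receptor, read 16.1 and 5.99 in the W-poor libraries and 0 in the W-rich libraries. These 3 genes did not pass the minimum and were not fitted.

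Markers of some other tissues were higher in the W-poor libraries, to unlike degrees, and are given beside the split. The skeletal muscle list was higher in the W-poor library than in both W-rich libraries of each tissue for 12 of 14 compared members, beside 13.5% of all genes compared. Of the 14, 13 were above 0, beside 53.5% of all genes, with a median difference of 2.37. Its summed level was 12550 in interzone 1 against 3246 and 6105 in interzone 2 and 3, and 5257 in phalange 1 against 897 and 865 in phalange 2 and 3. *MYOG*, a muscle differentiation factor, read 128 and 103.8 in the W-poor libraries and 0, 14.1, 0 and 0 in the W-rich libraries. For 5 of the 10 compared blood markers, the W-poor library exceeded both W-rich libraries of its tissue, in both tissues. The blood list was above 0 for all 10 members, with a median difference of 3.01. Its summed level was 33853 and 42043 in the W-poor libraries, and 1683, 51425, 2089 and 9445 in interzone 2, interzone 3, phalange 2 and phalange 3. Interzone 3, a W-rich library, therefore held the highest blood level.

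The endothelial list was above 0 for 8 of 9 members (median 1.79), beside 53.5% of all genes. For 4 of the 9, the W-poor library exceeded both W-rich libraries of its tissue, in both tissues, beside 13.5% of all genes. Of these, *TEK* is Z-linked, a class in which 42.6% of genes lay higher in this way. The endothelial sum was 768 in interzone 1, below the 823 of interzone 3 and above the 341 of interzone 2. In phalange it was 1684 in replicate 1 against 388 and 829 in replicates 2 and 3. All 8 macrophage markers were above 0 (median 1.35), with sums of 1343 and 1576 against 486 to 1228. Of these 8, 4 were higher in the W-poor library than in both W-rich libraries of each tissue. Lists of tendon and fibrous tissue, epidermis and nerve had medians of 0.08, 0.19 and -0.99, with 5 of 9, 4 of 5 and 0 of 4 above 0, and the list of heat shock and immediate early genes had -0.07 with 5 of 13. No listed gene of these groups was called by limma. The part of muscle, vessel and macrophage RNA in the differences of single genes, such as *MUSK* and *TMOD1*, was not tested. In bulk samples, more cells of a type and more RNA per cell cannot be told apart.

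The blood sum can be set beside the Z median minus the autosomal median in each tissue. In interzone, replicates 2 and 3 had blood sums of 1683 and 51425 and differed by 0.00487 in the Z measure, while replicate 1, at 33853, differed from them by 0.72 and 0.65. In phalange, replicate 1 was highest in both, with a blood sum of 42043 against 2089 and 9445 and Z differences of 0.50 and 0.56. The muscle sum was highest in replicate 1 of both tissues, at 12550 against 3246 and 6105 in interzone, and 5257 against 897 and 865 in phalange. The part of blood or muscle RNA in the Z difference was not tested.

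**Figure D5:**
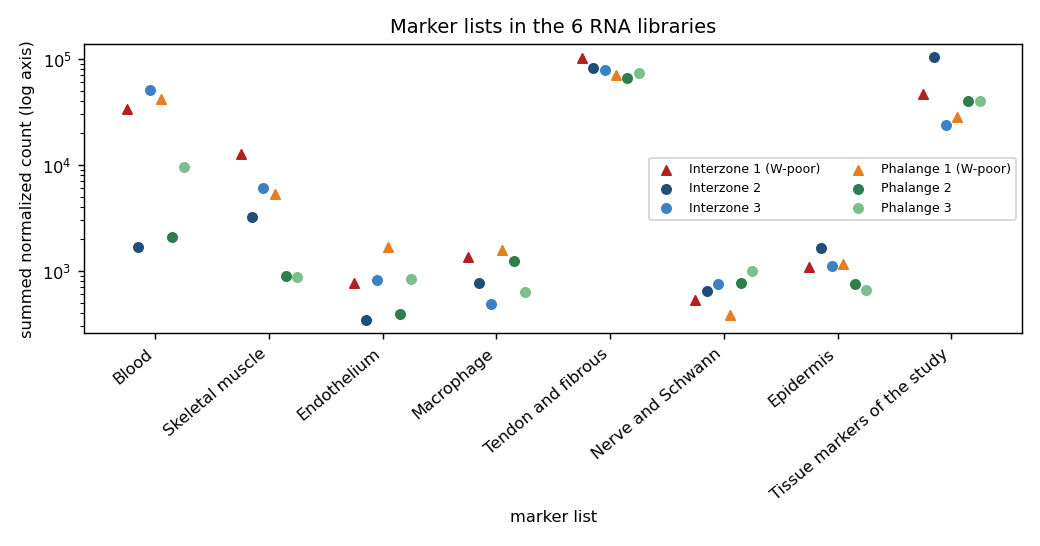
Summed normalized count (log axis) of 8 marker lists in each of the 6 RNA libraries, with triangles for the W-poor and circles for the W-rich libraries. The muscle sums of the W-poor libraries, 12550 and 5257, exceed those of the W-rich libraries of their tissue, while the highest blood sum, 51425, belongs to the W-rich interzone 3.

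The markers by which the tissues are told apart were not level between the libraries of a tissue. The 8 genes of the study's list (*GDF5*, *ENPP2*, *COL3A1*, *ERG*, *COL2A1*, *MATN1*, *SNAI1* and *RUNX2*) had a median difference of -0.12, with 3 above 0. In phalange, all 4 phalange markers were lowest in replicate 1, for example *MATN1*, a cartilage matrix gene, at 6418 against 18820 and 15769. The interzone markers *ENPP2*, *ERG* and *COL3A1* were highest there, with *ENPP2*, which makes lysophosphatidic acid, at 2073 against 599 and 818, while *GDF5*, the joint-inducing ligand, was lowest at 2925 against 3343 and 4628. In interzone, replicate 1 lay between replicates 2 and 3 for every one of the 8 except *RUNX2*. *RUNX2*, a regulator of chondrocyte maturation, read 729, 631 and 653 in interzone 1, 2 and 3 and 2980, 4343 and 4234 in phalange 1, 2 and 3. Each tissue held 1 W-poor and 2 W-rich libraries, so the fitted difference between tissues was the same with and without the split as covariate, and only its error and test changed.

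Interzone was compared with phalange on the groups of the labels. Without the split, edgeR called 0 genes higher and 1 lower in interzone (0.0% and 0.00838%). DESeq2 called 152 in both directions (0.872% higher and 0.402% lower). At an unadjusted p under 0.05, limma had 771 genes, or 6.46% of those compared. After adjustment limma called 0 genes higher and 3 lower (0.0252%). The 3 were *RUNX2* (-2.50, adjusted p = 0.0225), *SNAI1*, a transcriptional repressor (-2.11, adjusted p = 0.0335), and *C1H2ORF40*, a gene for a secreted peptide (-1.94, adjusted p = 0.0335). With the split as covariate, limma called 2 genes, both lower (0.0168%). *RUNX2* was shared (adjusted p = 0.0408), and *EPYC*, the cartilage proteoglycan epiphycan, was added (-5.14, SE 0.35, adjusted p = 0.0119). *SNAI1* and *C1H2ORF40* moved to adjusted p = 0.0743 and 0.0741. *EPYC* read 42.0, 284 and 176 in interzone 1, 2 and 3, and 2694, 6257 and 5623 in phalange 1, 2 and 3, so it was lowest in the W-poor library of each tissue.

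The covariate narrowed the error of the genes that follow the split. It was made from *HNRNPKL* in these same libraries, so for such genes this is built in, and the values are a description. The median SE of the tissue difference fell from 2.35 to 0.90 for W-linked genes and from 0.56 to 0.51 for Z-linked genes, and from 0.46 to 0.45 for autosomal genes. For *HNRNPK* it fell from 0.33 to 0.15, with a tissue difference of -0.09. No W-linked or Z-linked gene was called between the tissues in either fit.

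The ChIP-seq peak lists hold both chromosomes in every library. Peaks on W numbered 43 to 63 per list in H3K27ac and 17 to 45 in H3K4me1, and peaks on Z made up 3.91% to 5.12% of all peaks in a list. In H3K27ac the median fold enrichment over input of W peaks exceeded that of all peaks in the same list in all 6 lists, for example 3.24 against 2.68 in interzone replicate 1. In H3K4me1 it was below it in all 4 lists, by 2.66 against 2.67 in the closest one, phalange replicate 2. The peak libraries were pools of 100 specimens and are not the RNA samples, so W peaks in all of them say nothing about the embryos behind an RNA library.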

How the data were processed

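RNA was sequenced from 3 interzone and 3 phalange samples, with tissue and replicate taken from the labels. The authors trimmed reads with Trimmomatic, mapped single reads of 50 bp with STAR to *Gallus gallus* 6.0, counted them with featureCounts on Ensembl genes. The deposited values are these counts after division by a DESeq2 size factor per library, a normalized signal that is not whole. Tool versions were not given in the sources used here. Whether counting used strand was not given either. In each library 100% of the values were whole multiples of 1 read (tolerance 0.001), so reads were recovered. Where a library had 0 reads, 3 reads were taken as the upper limit.

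Libraries were split by *HNRNPKL* under 100 or above 1000 normalized counts. The members, the gene lists and the split were chosen with earlier results of these data known. Genes with a mean of at least 10 were fitted as log2(normalized count + 1) with limma 3.58.1 (eBayes with trend, Benjamini-Hochberg adjustment) in R 4.3.3, with tissue as covariate. Genes were called at an adjusted p under 0.05 and a log2 difference beyond 0.5. On the recovered reads, edgeR 4.0.16 with its quasi-likelihood test was run, and so was DESeq2 1.42.0, which gave NA for 232 genes of the split comparison. Alternatives were other pseudocounts, minimums, scalings, left-out libraries and a replicate block. The methods were also run on simulated reads with the same dispersion for every gene. These did not copy the spread of the real libraries, so nothing is read from them about these data. Where nothing says that libraries came from separate embryos, the p-values measure only the spread between these libraries.

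Chromosomes came from the symbols, of which 9997 of 10172 matched the RefSeq table of GRCg7b, another assembly, so no coordinates are given. No row named by an identifier alone was placed. Named genes were the W-linked genes with a mean of at least 10, their Z partners, the 10 Z-linked genes with the largest difference apart in both tissues, the neighbours of *DMRT1*, the listed genes and the genes called. Some genes that the rule covers are not reported here. Further genes, named as abundant, low or single examples, were chosen after their values were seen. Per the file headers and the methods, the authors called ChIP-seq peaks with MACS2 against input, and the deposited lists give fold enrichment over input and -log10 of p and q. Only the number of peaks and the fold ratio within a list were used, and the number of reads behind them is unknown.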

Additional observations from a re-analysis of the deposited data

Results flagged for a closer look

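In 3 listed genes the W-poor library lay on opposite sides of both W-rich libraries in the 2 tissues, which was not tested as a difference. Each tissue had only 1 W-poor library and 2 W-rich libraries, and the share over all genes was not taken. Nothing is therefore read from this count. *THBS4* differed by 0.49 in interzone and -0.34 in phalange. *RUNX2* differed by 0.18 in interzone and -0.52 in phalange, and the phalange value is that of a gene much higher in phalange. *SMAD7* differed by -0.50 in interzone and 1.41 in phalange, at 3.15 to 21.7 normalized counts, where a few reads decide the sign.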

How the results depend on the processing

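The 2 W-poor libraries are 1 per tissue, so every value of the split rests on them. The count of 16 called genes in the split stayed within 1.5 times with a pseudocount of 10 (12 genes), without tissue as covariate (22), without a minimum log2 difference (16) and with 3 other scalings. It became 8 at a minimum mean of 100, 10 without a minimum, 5 in edgeR, 115 in DESeq2 and 6 without the W-linked genes, the last chosen after seeing the data, and 0 to 1 with 1 library left out. The 3 genes called between tissues became 6 with a pseudocount of 10, 7 at a minimum mean of 100, 1 in edgeR, 152 in DESeq2 and between 0 and 9 with 1 library left out (9 without phalange 1, 0 without any other). The Z median kept its sign and lay between 0.55 and 0.69 with 1 library left out. The Z median minus the autosomal median, main value 0.63, lay between 0.53 and 0.63 with 1 library left out, was 0.61 at a mean of at least 1000 (chosen after seeing the data) and 0.55 to 0.65 under the other settings. The autosomal median was 0.011 with a pseudocount of 10, -0.012 at a minimum mean of 100, 0.057 without a minimum and 0.092 with total reads on genes, and 0.017 to 0.067 with 1 library left out, beside an SD of 0.015 over the 4 library pairs. The cause of these moves was not tested. Of 462 alternative values of 29 named genes, 2 turned in direction, both of *CHD1Z* (-0.14 without interzone 2, -0.015 without phalange 2), whose values ran from -0.14 to 0.37 with 1 library left out. The other named genes were W-linked, were chosen for standing apart, or stood apart in both tissues. Leaving out a library could therefore not turn their direction, and nothing is read from their kept signs. With no library left out, 13 of the values lost the call of the main fit. For libraries of equal replicate number, the correlation of deviations from the tissue means was taken over all genes. It was 0.19 for number 1, 0.08 for number 2 and -0.02 for number 3. Without the genes placed on W or Z by symbol it was 0.17, 0.07 and -0.02. With means of at least 100 as well, it was 0.25, 0.09 and 0.0098. Both sets still held rows that follow the split but could not be placed, such as *UBAP2* and rows without a symbol. Their part in these correlations was not tested. Over all genes, interzone 1 had -0.13 with phalange 2 and -0.07 with phalange 3, and interzone 3 correlated best with phalange 2 (0.02). Deviations within a tissue cancel for every gene, so the correlations of a library with those of the other tissue are tied to each other. In the last of these gene sets, interzone 3 was instead highest with phalange 3 (0.0098, against 0.0025 with phalange 2). There interzone 2 was also highest with phalange 3 (0.10, against 0.09 with phalange 2). Such correlations over a few libraries cannot decide whether libraries of equal number came from the same embryo. With replicate number as a random block, the split count stayed at 16. The split coincided with replicate number, so such a block cannot be separated from it, and nothing is read from that count. With replicate number as a fixed block, 1 gene was called between tissues. Low genes limit the rest, since a difference between libraries that all hold below about 10 reads is not measurable.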
